A study of Mus musculus with 6 samples.

Results

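The genes described here build and carry the sugar ligands through which leukocytes bind selectins. They are 8 of the 23420 genes in a count table of regulatory T cells (Tregs) from mouse tumors: Selplg, C1galt1, Gcnt1, B4galt1, St3gal1, St3gal4, St3gal6 and Fut7. They were selected by gene symbol, with values of the anti-PD-1 against untreated comparison known, among them the low values of Gcnt1 after anti-PD-1. The fold changes of the 8 genes between treatments are therefore a description and carry no test.

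Both groups were Foxp3-GFP mice of the BALB/c strain, in which cells that express Foxp3, the lineage factor of Tregs, are marked by GFP. All mice bore T11 tumors, a transplantable claudin-low form of triple-negative mouse breast cancer, which were started with 10000 cells and harvested at 150 mm2. The anti-PD-1 group received J43, an antibody that blocks PD-1, at 200 µg per intraperitoneal injection, 2 times per week, and is represented by libraries 4, 5 and 6. The other group was untreated (libraries 1, 2 and 3), and the labels describe no control antibody. RNA came from sorted GFP-positive cells, over 90% pure. Whether each library is from its own mouse is not stated, so the spread between libraries may be technical. Anti-PD-1 libraries held 5219249, 4766533 and 4836408 counts and untreated libraries 6686774, 5470816 and 5825110, so every anti-PD-1 library was shallower than every untreated one. Untreated library 1 stood apart: a chi-square of the counts per degree of freedom was 20.0 to 24.8 against each other library, and 8.66 to 12.6 between the rest. Fold changes without it are given for the 8 genes and, of the pathway genes, for Klf2, St8sia6, St8sia1, Slc35c1 and Il12rb2. They are also given where leaving it out turned the sign.

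Selectins are lectins of vascular and blood cells that slow cells in flowing blood. Their main partner on T cells is PSGL-1, a mucin with O-linked sugar chains. To bind P-selectin, these chains must end in sialyl Lewis x, a cap of sialic acid and fucose, on a branch called core 2. The chain is made stepwise in the Golgi: C1GALT1 makes the core 1 disaccharide, GCNT1 adds the core 2 branch, B4GALT1 lengthens it, an ST3GAL enzyme adds sialic acid and FUT7 adds the fucose that completes the cap. ST3GAL1 instead caps core 1 itself and so competes with GCNT1 for the same substrate. In T cells several of these enzymes are known to be induced with activation, and mouse Tregs use the resulting ligands to enter inflamed skin.

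The promoters of Gcnt1 and Fut7 are shown because these enzymes make the committed branch and the final fucose cap, beside that of C1galt1, the upstream enzyme whose values were level. RefSeq (GRCm38.p6) gives 10 promoters, each from 250 bases before to 50 bases after a start, for 6 of the 8 genes, and Selplg and St3gal1 had no entry. The first Gcnt1 promoter (chr19:17372795-17373094, minus strand) and the second (chr19:17356618-17356917, minus strand) belong to starts 16177 bases apart. The Fut7 promoter shown, the one of 2 that lies at the start of the deposited gene model, is chr2:25423444-25423743 on the plus strand, and that of C1galt1 chr6:7844974-7845273 on the plus strand. Capitals mark matches to CCACCC, the core of sites bound by Krüppel-like factors, or to the GC box GGGCGGG, on either strand, written 5′ to 3′ on the strand of the gene.
Gcnt1 first promoter: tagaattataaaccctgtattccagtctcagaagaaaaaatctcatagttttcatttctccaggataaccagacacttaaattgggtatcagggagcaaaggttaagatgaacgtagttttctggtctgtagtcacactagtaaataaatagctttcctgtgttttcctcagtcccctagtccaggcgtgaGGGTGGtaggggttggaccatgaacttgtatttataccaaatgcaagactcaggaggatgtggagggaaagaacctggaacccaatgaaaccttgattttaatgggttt
Gcnt1 second promoter: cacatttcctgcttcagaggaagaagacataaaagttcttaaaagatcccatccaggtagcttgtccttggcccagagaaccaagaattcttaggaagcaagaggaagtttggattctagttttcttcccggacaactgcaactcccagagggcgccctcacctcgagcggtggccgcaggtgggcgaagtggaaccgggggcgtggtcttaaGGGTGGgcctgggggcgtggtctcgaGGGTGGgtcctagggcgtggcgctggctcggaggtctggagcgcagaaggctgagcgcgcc
Fut7 second promoter: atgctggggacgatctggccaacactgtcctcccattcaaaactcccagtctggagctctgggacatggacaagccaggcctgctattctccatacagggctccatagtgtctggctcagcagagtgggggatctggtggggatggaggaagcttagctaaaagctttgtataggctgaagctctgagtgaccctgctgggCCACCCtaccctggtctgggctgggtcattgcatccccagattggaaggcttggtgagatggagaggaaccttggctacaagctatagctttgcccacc
C1galt1 promoter: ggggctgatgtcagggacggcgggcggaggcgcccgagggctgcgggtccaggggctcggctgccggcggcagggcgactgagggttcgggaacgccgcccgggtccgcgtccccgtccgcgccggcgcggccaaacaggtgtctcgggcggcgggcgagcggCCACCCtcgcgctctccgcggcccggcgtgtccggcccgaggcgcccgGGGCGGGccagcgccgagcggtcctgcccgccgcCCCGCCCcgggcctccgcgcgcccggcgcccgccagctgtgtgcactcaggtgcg
The first Gcnt1 promoter, at the start of the deposited gene model, had 40.7% G and C and 2 CpG dinucleotides, and the second had 58.7% and 16. The C1galt1 promoter had 82.7% and 52 CpG, and the second of Fut7 55.7% and 1, where the median of all 32851 promoters was 52.7% and 7. The letters CCACCC stood once in the first Gcnt1 promoter, 2 times in the second, and once each in the second of Fut7 and in that of C1galt1. Of the promoters not shown for these genes, the third of Gcnt1 (52% G and C, 3 CpG) held it once and the first of Fut7 (54% G and C, 8 CpG) did not hold it. They stand in 31.5% of all promoters, so such a match is common. The GC box, found in 25.6% of all promoters, stood 2 times in the C1galt1 promoter and in neither of the Gcnt1 promoters shown nor in either of Fut7. A T-box motif (TCACACC, in 3.98% of all promoters), an AP-1 site (TGANTCA, 7.81%) and an ETS site (CCGGAAG, 8.86%), searched on both strands, had no match in any of the 10 promoters. A STAT site (TTCNNNGAA, 8.3%) matched once, in the promoter of B4galt1. A match is a match of letters only, and gene counts do not show from which start a transcript came.

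Levels are given as CPM, counts divided by library size after TMM scaling (edgeR's correction for library composition). Across the 8 genes, the core 2 enzyme gene Gcnt1 was lower in every anti-PD-1 library than in any untreated one, and the carrier gene Selplg was higher in every anti-PD-1 library under TMM scaling, but overlapped between groups when scaled by library totals. The genes of the steps next to Gcnt1, C1galt1 and B4galt1, were level between the groups. The sialyltransferase genes St3gal1 and St3gal4 overlapped between groups, and St3gal6 and Fut7 were near the detection limit. In bulk RNA of sorted cells, fewer cells that express a gene and less of its RNA per cell cannot be told apart. All 8 genes passed the filter on low counts, which left 10352 genes, although Fut7 and St3gal6 passed with few counts. Fut7 passed mostly through the untreated libraries (29, 20 and 15 counts, against 0, 1 and 15 after anti-PD-1).

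**Figure D1:**
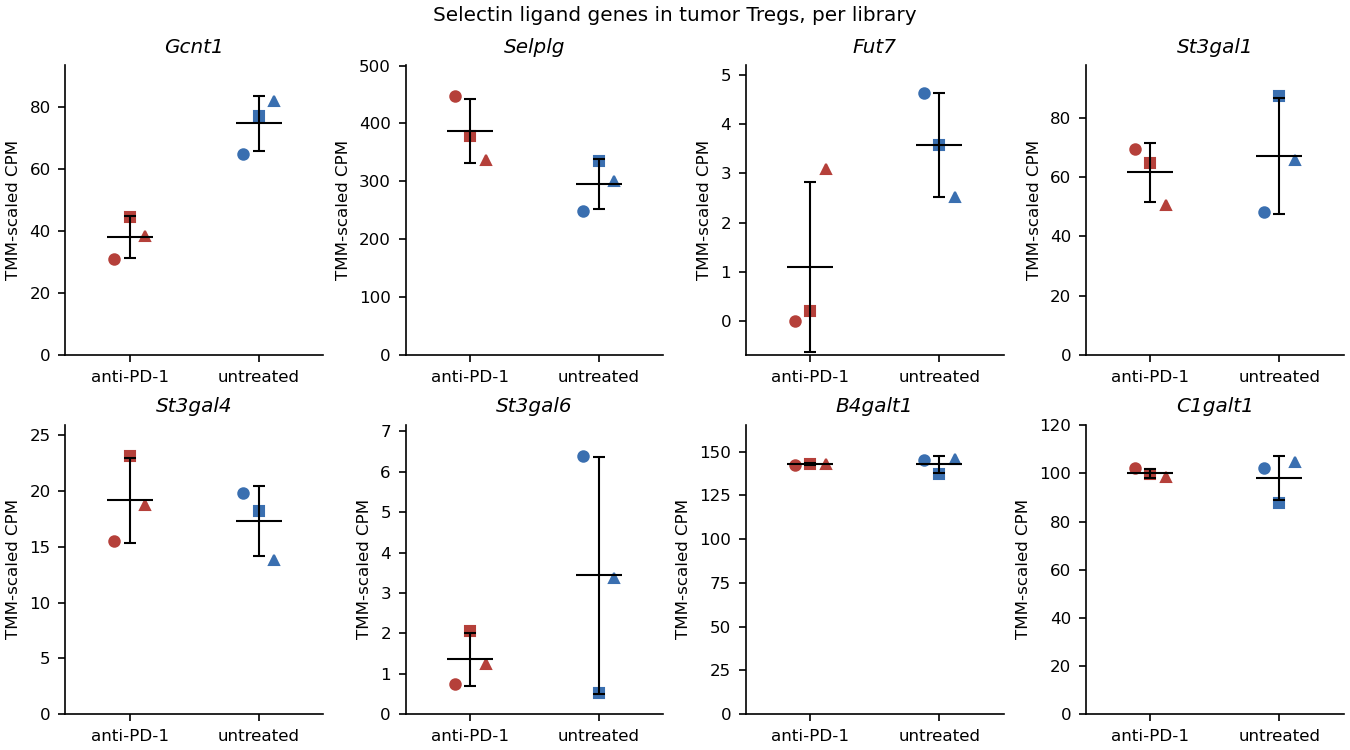
TMM-scaled CPM (y axes) of the 8 selectin ligand genes in 3 anti-PD-1 libraries (red, left) and 3 untreated libraries (blue, right). Each point is 1 library (circle, square and triangle are libraries 4, 5 and 6 or 1, 2 and 3, which are not paired), the long bar is the mean and the error bar ± 1 SD. Gcnt1 separates the groups, as does Selplg in the opposite direction (though not when scaled by library totals), and the other 6 genes overlap.

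Selplg encodes PSGL-1, the protein that carries the ligand (chromosome 5, 113817798 to 113830501, minus strand, in mm10). It was the most abundant of the 8 genes, with 447, 378 and 337 CPM in the anti-PD-1 libraries, against 249.6, 335 and 300.5 CPM in the untreated ones. The groups were apart by 337 CPM in anti-PD-1 library 6 against 335 CPM in untreated library 2. Scaled by library totals, these libraries had 338 CPM and 343 CPM, and the groups overlapped. The means were 387 ± 55.5 CPM after anti-PD-1 and 295 ± 43.0 CPM in untreated libraries (SD, n = 3 each), a log2 fold change of 0.40 with an SE of 0.16. Without anti-PD-1 library 4 it was 0.28, and without untreated library 1 it was 0.29.

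C1galt1 encodes the enzyme that makes core 1, the base of these chains (chromosome 6, 7845224 to 7872042, plus strand). It had 102, 99.5 and 98.3 CPM in anti-PD-1 libraries, against 102, 87.6 and 105 CPM in untreated libraries. The groups overlapped, and the anti-PD-1 values lay within the untreated range. The SD was 1.99 CPM among anti-PD-1 libraries and 9.23 CPM among untreated libraries (n = 3 each), and the log2 fold change was 0.03 ± 0.18 (SE), or 0.05 without untreated library 1. C1galt1c1, which encodes the chaperone this enzyme needs, averaged 14.1 CPM after anti-PD-1 and 15.9 CPM in untreated libraries.

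Gcnt1 encodes the enzyme that adds the core 2 branch (chromosome 19, 17326141 to 17372844, minus strand). Its counts were 163, 215 and 186 in anti-PD-1 libraries, against 405, 431 and 485 in untreated libraries. Scaled for depth, these were 30.9, 44.5 and 38.3 CPM after anti-PD-1, against 64.8, 77.0 and 81.8 CPM in untreated libraries. The highest anti-PD-1 value, in library 5, lay well below the lowest untreated value, in library 1. The means were 37.9 ± 6.81 CPM after anti-PD-1 and 74.55 ± 8.74 CPM in untreated libraries (SD, n = 3 each), a fitted fold change of 0.508 and a log2 fold change of -0.98 ± 0.23 (SE). Of the 10352 tested genes, 294 had a lower log2 fold change, among them scarce genes such as Fut7 and St3gal6. Gcnt1 was chosen with its low values known, so this rank is a description. The log2 fold change of Gcnt1 was -1.07 without untreated library 1. It lay between -1.11 and -0.85 in the 16 alternative fits, which included leaving out each library, other scalings and other tools. These fits reuse the same libraries, so this range is a description too.

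B4galt1 encodes the galactosyltransferase that lengthens the core 2 branch (chromosome 4, 40804582 to 40854537, minus strand). It stood at 142, 143 and 143 CPM in anti-PD-1 libraries, against 145, 137 and 146 CPM in untreated libraries. Every anti-PD-1 value lay inside the untreated range. The mean was 142.9 CPM in either group, with an SD of 0.488 after anti-PD-1 and 4.90 in untreated libraries (n = 3 each), and the SE of the log2 fold change was 0.16. Without untreated library 1 the log2 fold change was 0.01.

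The ST3GAL enzymes add the sialic acid. St3gal1 (chromosome 15, 67102875 to 67176882, minus strand), whose product caps core 1, had 69.6, 64.6 and 50.5 CPM after anti-PD-1, against 48.4, 87.2 and 65.6 CPM in untreated libraries. The untreated libraries spanned the anti-PD-1 values. The means were 61.5 ± 9.90 CPM after anti-PD-1 and 67.05 ± 19.5 CPM in untreated libraries, a log2 fold change of -0.11 ± 0.23 (SE) that was 0.12 without untreated library 2, -0.31 without untreated library 1 and 0.01 without anti-PD-1 library 6. St3gal4 (chromosome 9, 35046579 to 35116810, minus strand), an enzyme that caps the branch in selectin ligands of mouse leukocytes, had 15.5, 23.2 and 18.75 CPM after anti-PD-1, against 19.9, 18.2 and 13.8 CPM in untreated libraries. These groups also overlapped, with means of 19.2 ± 3.83 CPM after anti-PD-1 and 17.3 ± 3.12 CPM in untreated libraries and a log2 fold change of 0.14 ± 0.35 (SE), or 0.25 without untreated library 1. Its exons overlap those of an opposite-strand gene, 4930581F22Rik, which averaged 15.3 and 13.7 counts in the anti-PD-1 and untreated libraries, and the counting used strand.

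St3gal6 (chromosome 16, 58470541 to 58523312, minus strand), which works beside St3gal4 in mouse leukocytes, was scarce. It had 4, 10 and 6 counts in anti-PD-1 libraries, against 40, 3 and 20 in untreated libraries. Untreated library 2 held the fewest counts of all 6 libraries and untreated library 1 the most. The 95% Poisson intervals, which cover counting error only, ran from 0.619 to 8.77 for the 3 counts and from 28.6 to 54.5 for the 40 counts, so the untreated libraries differed beyond counting error. The log2 fold change was -1.39 ± 0.90 (SE), and -0.57 without untreated library 1.

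Fut7 encodes the fucosyltransferase that completes sialyl Lewis x in leukocytes (chromosome 2, 25423694 to 25426373, plus strand). It had 0, 1 and 15 counts in anti-PD-1 libraries, against 29, 20 and 15 in untreated libraries. Library 6 of the anti-PD-1 group matched the lowest untreated count, and libraries 4 and 5 held almost none. The count of 0 in library 4 allows up to 3 counts as a one-sided limit, or 0.569 CPM. The 95% Poisson interval was 0.0253 to 5.57 for the 1 count of library 5 and 8.39 to 24.7 for the 15 counts of library 6, so the anti-PD-1 libraries differed among themselves beyond counting error. The means were 1.099 ± 1.73 CPM after anti-PD-1 and 3.58 ± 1.06 CPM in untreated libraries (SD, n = 3 each). The log2 fold change was -1.73 ± 1.01 (SE), -4.90 without anti-PD-1 library 6, -1.11 without anti-PD-1 library 4, -1.49 without untreated library 1 and -2.99 in limma-voom.

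**Figure D2:**
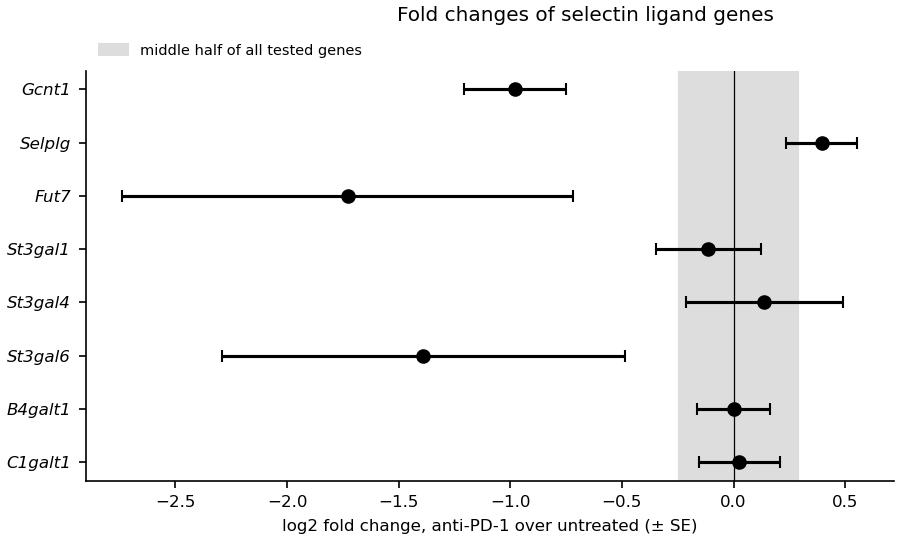
Log2 fold change, anti-PD-1 over untreated (x axis), of the 8 genes in edgeR's fit, with bars of ± 1 SE. The grey band is the interquartile range of all 10352 tested genes (-0.25 to 0.29): St3gal1, St3gal4, B4galt1 and C1galt1 lie inside it, and the wide bars of Fut7 and St3gal6 rest on few counts.

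Read as a group, 5 of the 8 genes had a log2 fold change below 0 and 3 above 0. Their median was -0.06, where that of all tested genes was 0.00 with 49.9% below 0. Without Fut7 and St3gal6, the median was 0.01. EdgeR's quasi-likelihood test, Benjamini-Hochberg adjusted over all genes at 0.05, called 0 of the 8, where it called 0.029% of all tested genes. DESeq2 called Gcnt1, 1 of the 5 members to which it gave an adjusted p, where it called 0.785% of such genes. At an unadjusted p under 0.05 in edgeR stood 2 members, where 8.31% of tested genes did. Non-overlapping groups were found for 1 member lower after anti-PD-1 (6.44% of tested genes) and 1 higher (7.18%), or for 1 lower and 0 higher with library totals (5.98% and 7.43% of tested genes). Gcnt1 was also called by edgeR without a filter on low counts and without untreated library 1, in all by 3 of 16 alternatives. Those 2 edgeR fits called 52 and 19 genes over all, where the main fit called 3. Since the genes were chosen from this comparison, with the low values of Gcnt1 known, nothing is read from these counts and calls.

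Levels can be compared between genes once divided by gene length. Over the 6 libraries, Selplg led with a mean of 131 CPM per kilobase, followed by C1galt1 with 48.0, B4galt1 with 31.5, Gcnt1 with 11.75, St3gal1 with 11.1, St3gal4 with 8.99, St3gal6 with 1.504 and Fut7 with 1.19 CPM per kilobase. The ranges of Selplg, C1galt1, B4galt1 and Gcnt1 did not overlap from one to the next, and neither did those of St3gal4 and St3gal6. The neighbours Gcnt1 and St3gal1 kept their order in 3 of 6 libraries, St3gal1 and St3gal4 in 3, and St3gal6 and Fut7 in 4, so the ranges of these pairs overlapped over the 6 libraries. For Gcnt1 and St3gal1 the order went with the group. Among all tested genes, Selplg stood at the 96.3 percentile of mean CPM and Fut7 at the 3.58 percentile. Summed, the 8 genes took 751 ± 59.0 CPM after anti-PD-1 and 702 ± 54.4 CPM in untreated libraries (SD, n = 3 each), with overlap, and Selplg made up the largest share of either sum.

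**Figure D3:**
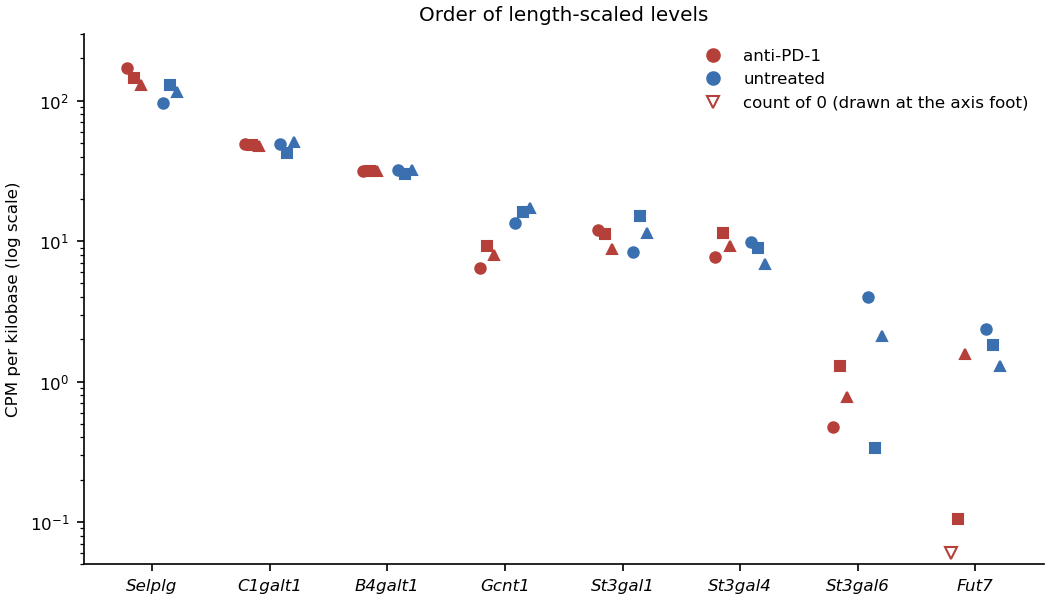
CPM per kilobase of gene length (y axis, log scale) of the 8 genes in order of their mean, with 3 anti-PD-1 libraries (red, left) and 3 untreated libraries (blue, right) per gene. The open triangle is the count of 0 of Fut7, drawn at the foot of the axis. Selplg, C1galt1 and B4galt1 keep places 1, 2 and 3 in both groups, and Gcnt1 has place 6 after anti-PD-1 and place 4 in untreated libraries.

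The place of Gcnt1 in this order differed between groups. By group means per kilobase it ranked 6 after anti-PD-1, with 7.92 ± 1.42, below St3gal1 (10.6 ± 1.71) and St3gal4 (9.44 ± 1.89). In untreated libraries it ranked 4, with 15.6 ± 1.83, above St3gal1 (11.6 ± 3.37) and St3gal4 (8.53 ± 1.54). The other 7 genes kept their order among themselves in both groups.

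Ratios within a library compare Gcnt1 with the enzyme that competes for core 1 and with the one that makes it, and do not depend on how libraries are scaled. Gcnt1 over St3gal1, per kilobase, was 0.538, 0.833 and 0.918 in anti-PD-1 libraries, against 1.62, 1.07 and 1.51 in untreated libraries. Per kilobase, all 3 anti-PD-1 libraries thus held less Gcnt1 than St3gal1 and all 3 untreated libraries held more. The place of 1 between the groups rests on the deposited gene lengths. Before division by length, untreated library 2 held 431 counts of Gcnt1 and 488 of St3gal1. The mean ratio was 0.763 ± 0.1997 after anti-PD-1 and 1.40 ± 0.292 in untreated libraries (SD, n = 3 each). Gcnt1 over C1galt1 was 0.131, 0.193 and 0.169 after anti-PD-1, against 0.274, 0.380 and 0.338 in untreated libraries, again without overlap. The log2 differences of these ratios were -0.89 and -1.01, and without untreated library 1 they were -0.77 and -1.14. St3gal1 over C1galt1, which leaves out Gcnt1, overlapped, with a mean of 0.2195 ± 0.0316 after anti-PD-1 and 0.2495 ± 0.0959 in untreated libraries. These ratios hold the same counts of Gcnt1 that the genes were chosen by, and are a description.

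**Figure D4:**
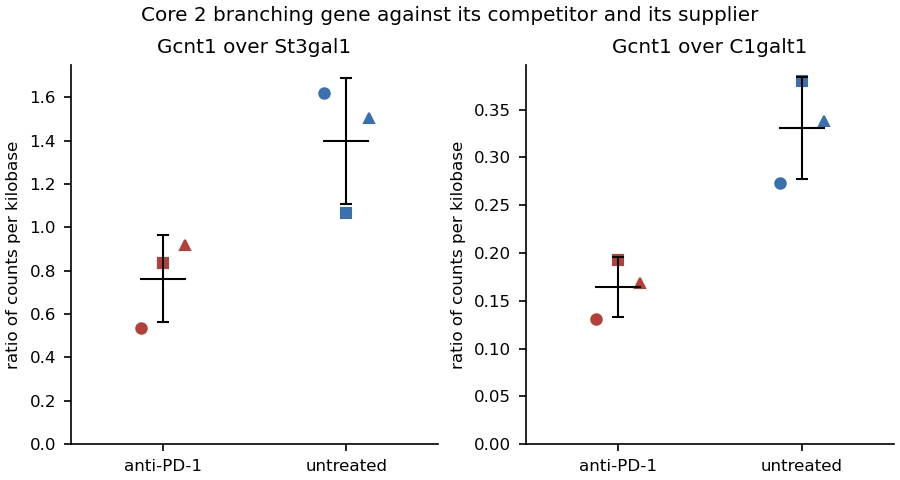
Ratio of length-scaled counts (y axes, from 0) of Gcnt1 to St3gal1 (left panel) and of Gcnt1 to C1galt1 (right panel) in anti-PD-1 libraries (red, left) and untreated libraries (blue, right). Points are libraries 4, 5 and 6 or 1, 2 and 3 (circle, square, triangle, not paired), long bars means and error bars ± 1 SD. The ratio to St3gal1 lies below 1 in every anti-PD-1 library and above 1 in every untreated library, a place of 1 that rests on the gene lengths used.

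Other genes of the pathway were taken as 9 lists with 126 entries, none of them among the 8 genes, of which 78 passed the filter on low counts. In edgeR's test over all genes, 1 of the 78 rose, 0 fell, and the rest did not pass, where 0.029% of all tested genes were called. At an unadjusted p under 0.05 stood 5 with higher and 5 with lower values, together 12.8%, where 8.31% of all tested genes did. The lists were chosen with earlier results of these data known, so these counts are a description and nothing is read from them. The gene that rose was Klf2, a transcription factor that in mouse T cells maintains quiescence and recirculation. It had 316, 403 and 446 CPM in anti-PD-1 libraries, against 142.5, 103 and 115 CPM in untreated libraries, with no overlap and a log2 fold change of 1.69 ± 0.17 (SE, adjusted p = 1.25e-05), or 1.83 without untreated library 1. Of the 78, 40 had values above 0 and 38 below, with a median log2 fold change of 0.06.

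**Figure D5:**
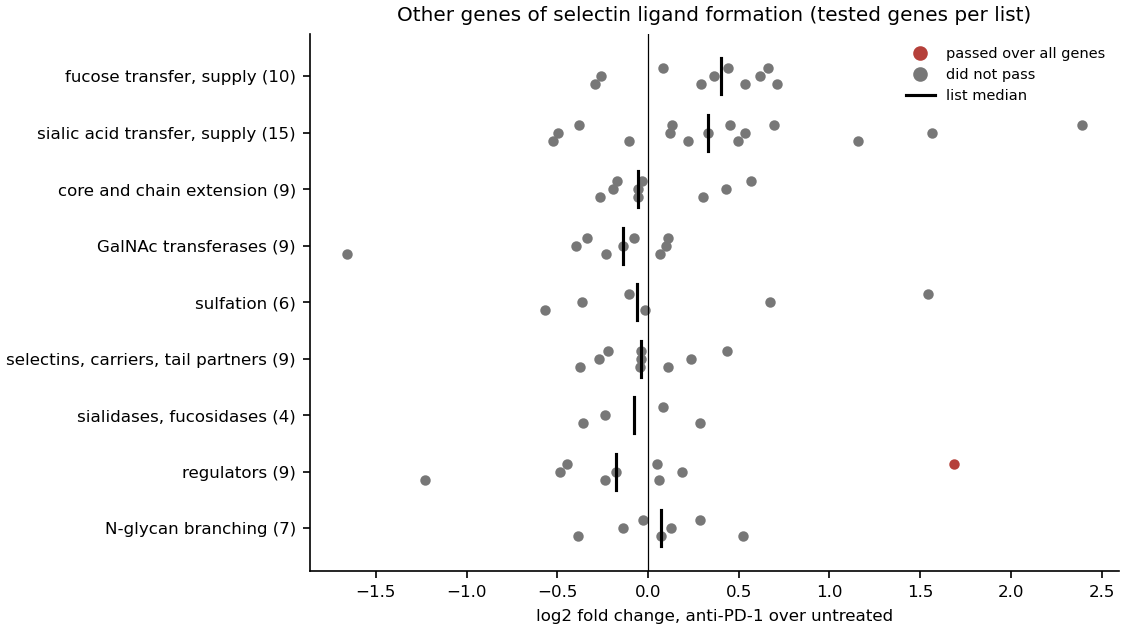
Log2 fold change, anti-PD-1 over untreated (x axis), of the 78 other pathway genes, by list, with the number of tested genes in parentheses. Each point is a gene and each vertical bar a list's median. Klf2 (red), among the regulators, is the gene that passed over all genes, at 1.69.

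Of 15 tested sialyltransferases and CMP-sialic acid supply genes besides the members, none passed, 11 lay above 0 and 4 below, and the median log2 fold change was 0.33. At an unadjusted p under 0.05 stood 3 with higher and 1 with lower values, where 8.31% of all tested genes did in either direction. St8sia6, whose product adds sialic acid to sialic acid, had 40.2, 66.4 and 75.2 CPM in anti-PD-1 libraries, against 30.3, 32.2 and 18.7 CPM in untreated libraries. The groups did not overlap, and the log2 fold change was 1.16 ± 0.28 (SE, edgeR adjusted p = 0.175), or 1.25 without untreated library 1. DESeq2 called it (adjusted p = 0.0392), as did edgeR without a filter on low counts (adjusted p = 0.0117). St8sia1, the GD3 synthase gene, had 8.15, 6.42 and 16.9 CPM after anti-PD-1, against 2.40, 1.43 and 2.02 CPM in untreated libraries, also without overlap (log2 fold change 2.39 ± 0.66, edgeR adjusted p = 0.311, and 2.57 without untreated library 1). St8sia4, the polysialyltransferase gene, was the reverse, with 488, 593 and 479 CPM after anti-PD-1 and 697, 702.5 and 633 CPM in untreated libraries (-0.38 ± 0.14, edgeR adjusted p = 0.485). St6gal1, which caps N-glycan chains with sialic acid in another linkage, averaged 89.2 and 61.3 CPM in anti-PD-1 and untreated libraries (edgeR adjusted p = 0.551). Its values overlapped between groups.

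Of 10 tested fucosyltransferase and GDP-fucose supply genes, none passed, 8 lay above 0, and the median log2 fold change was 0.40. Slc35c1, the Golgi transporter of GDP-fucose on which all fucosylated selectin ligands depend, averaged 15.7 CPM after anti-PD-1 and 9.77 CPM in untreated libraries, with overlap (edgeR adjusted p = 0.704). Its log2 fold change was 0.71, and 0.43 without untreated library 1. Fut8, which fucosylates the N-glycan core and makes no selectin ligand, averaged 44.4 and 54.2 CPM in anti-PD-1 and untreated libraries (edgeR adjusted p = 0.768). The other leukocyte enzyme that can make Lewis x type caps, Fut4, was hardly detected, with 2 counts summed over the anti-PD-1 libraries and 7 over the untreated ones, and Fut9 had 0 in both.

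The start and branching of O-glycans were covered by further lists. Of 9 tested GalNAc transferases, which begin the chains, none passed and 2 stood lower at an unadjusted p under 0.05 (8.31% of all tested genes did in either direction), with a list median of -0.14. Galnt3 had 1.71, 2.07 and 1.85 CPM in anti-PD-1 libraries, against 8.64, 3.75 and 5.23 CPM in untreated libraries (edgeR adjusted p = 0.551). Galnt6 averaged 108 ± 8.79 CPM after anti-PD-1 and 142 ± 10.9 CPM in untreated libraries (SD, n = 3 each; edgeR adjusted p = 0.558). Neither overlapped between groups. Of 9 tested core and chain extending genes besides the members, none passed, and the median was -0.05. The other core 2 enzymes gave no comparison: Gcnt3 had 0 counts over the anti-PD-1 libraries and 4 over the untreated ones, and Gcnt4 had 3 and 1.

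Of the other lists, the 9 tested carriers, selectins and tail partners had a median of -0.04 and none passed. Cd44, an adhesion receptor that can carry E-selectin ligands, averaged 561 ± 74.9 CPM after anti-PD-1 and 728 ± 81.8 CPM in untreated libraries (edgeR adjusted p = 0.522). Spn (CD43), another carrier that GCNT1 branches in activated T cells, averaged 274 and 232 CPM in anti-PD-1 and untreated libraries (edgeR adjusted p = 0.716). Both Cd44 and Spn overlapped between groups. In the 6 tested sulfation genes the median was -0.06 and none passed. Chst2, a sulfotransferase of selectin ligand sugars, averaged 64.6 and 83.1 CPM in anti-PD-1 and untreated libraries, with overlap (edgeR adjusted p = 0.663). Tpst1 and Tpst2 encode the enzymes that sulfate tyrosines, as PSGL-1 needs for P-selectin binding. Tpst1 was scarce and overlapped between groups, with 7.20, 1.45 and 3.503 CPM after anti-PD-1, against 2.08, 0.894 and 1.18 CPM in untreated libraries (log2 fold change 1.54 ± 0.83, edgeR adjusted p = 0.653). Tpst2 averaged 33.0 and 35.6 CPM in anti-PD-1 and untreated libraries (edgeR adjusted p = 0.943).

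Among 9 regulators tied to these ligands in T cells, 4 lay above 0 and 5 below, with a median of -0.18, and Klf2 was the one that passed. Prdm1, which encodes Blimp-1 of effector Tregs, averaged 164 and 230.0 CPM in anti-PD-1 and untreated libraries, with overlap (edgeR adjusted p = 0.481). Tbx21, which encodes T-bet, an inducer of Fut7 and Gcnt1 in mouse T helper cells, had 17.6, 23.0 and 13.8 CPM after anti-PD-1, against 9.61, 41.1 and 24.6 CPM in untreated libraries (edgeR adjusted p = 0.817). Il12rb2, part of the IL-12 receptor upstream of T-bet, had 0, 3.725 and 1.44 CPM after anti-PD-1, against 0.320, 8.58 and 3.37 CPM in untreated libraries. The groups overlapped (edgeR adjusted p = 0.775). The log2 fold change of Il12rb2 was -1.23, and -0.11 without untreated library 2, or -1.81 without untreated library 1. That of Tbx21 was -0.45, with overlap. The regulators not yet named overlapped too, with log2 fold changes of 0.05 for Stat4, 0.06 for Rara and 0.19 for Foxo1. They were -0.18 for Gata3 and -0.24 for Il12rb1. The 4 tested sialidases and fucosidases had a median of -0.08 and the 7 tested N-glycan branching genes one of 0.07, and none of either passed. Mgat5, which makes the most branched N-glycans, averaged 71.3 and 49.5 CPM in anti-PD-1 and untreated libraries, with overlap (edgeR adjusted p = 0.628).

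The sorted cells carried the markers of their label. Foxp3 averaged 522 ± 53.5 CPM after anti-PD-1 and 450.0 ± 11.6 CPM in untreated libraries, and Cd4 477 ± 16.6 CPM after anti-PD-1 and 422 ± 50.3 CPM in untreated libraries (SD, n = 3 each). All 6 Treg markers were detected, and their summed level was 5358 to 6089 CPM after anti-PD-1 and 6297 to 7069 CPM in untreated libraries, without overlap, with Ctla4, Il2ra and Ikzf2 lower on average and Foxp3, Cd4 and Cd3e higher. All 8 cell cycle markers were detected, with a summed level of 531 to 844 CPM in anti-PD-1 and 869 to 1410 CPM in untreated libraries, which did not overlap. Of the 8, Mki67, Top2a, Ccnb1 and Bub1 were lower without overlap and the other 4 overlapped, Aurkb with the higher mean after anti-PD-1. Of all tested genes, 6.44% were lower without overlap. Mki67 (362 ± 93.9 CPM after anti-PD-1, 639 ± 195 CPM in untreated libraries) and Top2a made up most of the sum. The part of either list in the values of Gcnt1 was not tested. Of 9 neutrophil markers in the table, 5 were at 0 in all libraries (S100a9, Elane, Camp, Csf3r and Retnlg), and the list summed to 1.52 to 4.33 CPM after anti-PD-1 and 11.4 to 20.4 CPM in untreated libraries. Nearly all of it was Ltf, without which the list summed to 0 to 0.412 CPM after anti-PD-1 and 0.675 to 2.14 CPM in untreated libraries. Its part in the values of Fut7 and Gcnt1, which mouse neutrophils also express, was not tested. The summed levels of macrophage, B cell, CD8 and NK cell, tumor and fibroblast, endothelial and platelet markers overlapped between groups, and each was at most 57.3 CPM in any library.

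Genes whose log2 CPM followed that of Gcnt1 most closely over the 6 libraries were Lin9, Cd40lg, Bnip3, Prpf18 and Alms1, with Pearson correlations from 0.990 to 0.980 among 8701 genes of at least 5 CPM. Each of them was lower in every anti-PD-1 library than in any untreated library, so these correlations, given as a description, include the difference between groups. Lin9, a subunit of the complex that drives mitotic genes, had 23.7, 27.1 and 25.8 CPM after anti-PD-1, against 38.1, 41.3 and 43.0 CPM in untreated libraries. Cd40lg, the T cell ligand of CD40, had 8.72, 10.55 and 10.5 CPM after anti-PD-1, against 13.8, 17.0 and 16.2 CPM in untreated libraries. Bnip3, a mitophagy receptor induced by hypoxia, averaged 16.0 ± 2.46 CPM after anti-PD-1 and 32.6 ± 4.85 CPM in untreated libraries (SD, n = 3 each).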

How the data were processed

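RNA of sorted tumor Tregs was analysed in 3 anti-PD-1 and 3 untreated libraries. The authors deposited raw gene counts (fragments, assigned by strand on mm10 with featureCounts 1.5.2), per the file headers. How duplicate reads were handled was not stated. The submitters' processing notes also name DESeq2. Of the 23420 genes, 10352 passed filterByExpr (a count of 10, 15 in total). EdgeR 4.0.16 (R 4.3.3) fitted all of them with TMM scaling, robust quasi-likelihood and treatment as the only term, two-sided, adjusted over all tested genes. The SE of a log2 fold change was its absolute value divided by the square root of the quasi-likelihood F statistic. It is therefore approximate. Alternatives used DESeq2 1.42.0, limma-voom 3.58.1, other scalings and filters, and fits without each library. For each pair of libraries, a chi-square of the counts was 8.66 to 24.8 per degree of freedom, so none was a copy of another.

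The 8 genes, the pathway lists and the alternatives were chosen with earlier results of these data known. Named pathway genes were up to 4 per list by smallest unadjusted p, plus any that passed. C1galt1c1, Tpst2, Tbx21, Fut4, Fut9, Gcnt3 and Gcnt4 were named for their role after their values were seen. A gene that the rule names is not reported here. The 5 genes most like Gcnt1 were found by correlation. CPM per kilobase used the deposited gene lengths, and ratios added 0.5 counts. Of 188 list entries, 1 matched by synonym and 1 not at all. Further, 1 unnamed column with 6 values was not used. Promoters come from RefSeq (GRCm38.p6).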

Additional observations from a re-analysis of the deposited data

How the results depend on the processing

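The direction of Gcnt1 and Selplg held in all 16 alternatives, at log2 fold changes from -1.11 to -0.85 and from 0.28 to 0.50, as did those of Fut7 (-4.90 to -1.11) and St3gal6 (-1.86 to -0.54). These fits reuse the libraries by which the genes were chosen, so a kept direction is a description. Fut7 moved beyond its error to -2.99 in limma-voom. St3gal1, St3gal4, B4galt1 and C1galt1, all near 0, changed sign in some alternatives, B4galt1 to 0.0358 with upper quartile scaling. The members' median moved to 0.0042 without anti-PD-1 library 6. Members called numbered 1 with DESeq2 and with no filter, and 0 to 1 when each library was left out. Calls over all genes, 3 in edgeR, were 34 with DESeq2, 5 with limma-voom, 12 with quality weights, 5 without robust shrinkage, 5 with upper quartile scaling, 7 with library totals, 52 without a filter, and 1 to 19 when each library was left out. Other pathway genes called numbered 2 with DESeq2 and without a filter, where St8sia6 joined Klf2. Of 576 values of 36 named pathway genes, 549 kept direction and side of the threshold, 18 kept direction but got no adjusted p from DESeq2, 2 came to pass and 7 turned in sign: B4galt3 (-0.166 without anti-PD-1 5; 0.765 at most with a library left out), Neu1 (-0.0225 with quality weights, -0.157 without anti-PD-1 6, -0.112 without untreated 1, -0.0506 without untreated 2, at most 0.478), Mgat1 (-0.129 without untreated 1, at most 0.547) and Man1a (-0.0473 without untreated 2, at most 0.3585). The causes were not tested. No scaling moved the median of all genes by over 0.1. The groups of Selplg overlapped with library totals. That check, the earlier quasi-likelihood form and the median without Fut7 and St3gal6 were chosen after seeing the data. No paired analysis was possible because the groups share no replicate numbers. Depth limits Fut7 and St3gal6, with at most 29 and 40 counts per library.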
